A study of Rattus norvegicus with 9 samples.

Results

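The collagen chain family was compared between skull and limb bone of the rat. A gene was counted as a collagen chain where its symbol in the annotation of the array had the form of a collagen alpha chain (Col, a number, the letter a and a number), and only probe sets naming that gene alone were used. Where several probe sets named one chain, the one with the highest mean log2 signal over the 9 arrays stood for it. This gave 41 chains, measured by 58 probe sets, among 14217 genes.

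Collagens are proteins of 3 alpha chains wound into a triple helix, and the chains that share a molecule set its class. Fibril-forming collagens make the tensile scaffold of bone, skin and tendon, and in bone the fibril of Col1a1 and Col1a2 chains is the template that mineral is laid into. Network collagens build basement membranes, beaded filaments tether cells to the matrix around them, FACIT chains sit on the surface of fibrils, and transmembrane chains and multiplexins lie at the cell surface or in the basement membrane zone of vessels and muscle.

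Total RNA came from calvaria, the skull vault (4 arrays), and from ulna, a forelimb long bone (5 arrays), of untreated male CD rats. Their labels give a weight of 110 without a unit, the upper end of the range in grams given in the methods of the study. The age of the rats was not given in the sources used here. Methods of the study describe extracts of several rats each, with soft tissue and sutures or epiphyses removed, so a replicate is a pool of animals, skull and limb extracts may come from the same rats, and p-values measure the spread between extracts. One field of the labels names the calvaria for ulna 1, 2, 3 and 4, against their titles and source names. Hoxa9, a homeobox gene of the trunk and limbs, had a signal of 1.82 to 4.80 on the skull arrays and 60.4 to 79.0 on the limb arrays, ulna 1 to 4 included. Markers of osteoblasts were present at both sites: the 6 measured of 8 listed summed to 14570.3 to 20047.6 on skull arrays and 10938.5 to 13938.1 on limb arrays, and none of the 6 was at the level of the absent controls.

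Expression is given as scaled signal, the deposited signal of a probe set after each array was brought to a common median of 33.8. Differences are skull minus limb on the log2 scale, with the standard error, and values per array are given in the order calvaria 1 to 4 and ulna 1 to 5. A gene was called at a Benjamini-Hochberg adjusted p below 0.05 in limma and a difference of at least 1, which is 2-fold. Signals of different probe sets are not compared as levels, because probes bind unequally. A chain was counted as above absent controls where its mean at 1 site or more exceeded 8.34, the highest signal of probe sets for bacterial transcripts that were not added to the samples, and 35 of the 41 chains were.

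In the skull, 4 chains were called higher and 0 lower. The 4 were Col22a1, Col13a1, Col15a1 and Col6a6, from 4 different classes, and they were 9.76% of the chains, beside 3.59% of all 14217 genes called higher and 4.47% called lower. By adjusted p alone, without the 2-fold threshold, 15 chains were higher and 2, Col16a1 and Col6a5, were lower (36.6% and 4.88%, beside 14.2% and 18.1% of all genes). Of these 17, 13 differed by less than 2-fold, and the other 24 chains passed neither rule. The arrays of the sites did not overlap for 14 higher chains and 1 lower chain (34.1% and 2.44%, beside 12.4% and 16.4% of all genes). The median difference was 0.28 over the 41 chains and 0.33 over the 35 above absent controls, beside -0.02 over all genes, and 28 chains had a positive difference, 12 a negative one and Col9a1 none. In whole bone, fewer cells of a type and less RNA per cell cannot be told apart, and this holds for each difference here.

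**Figure D1:**
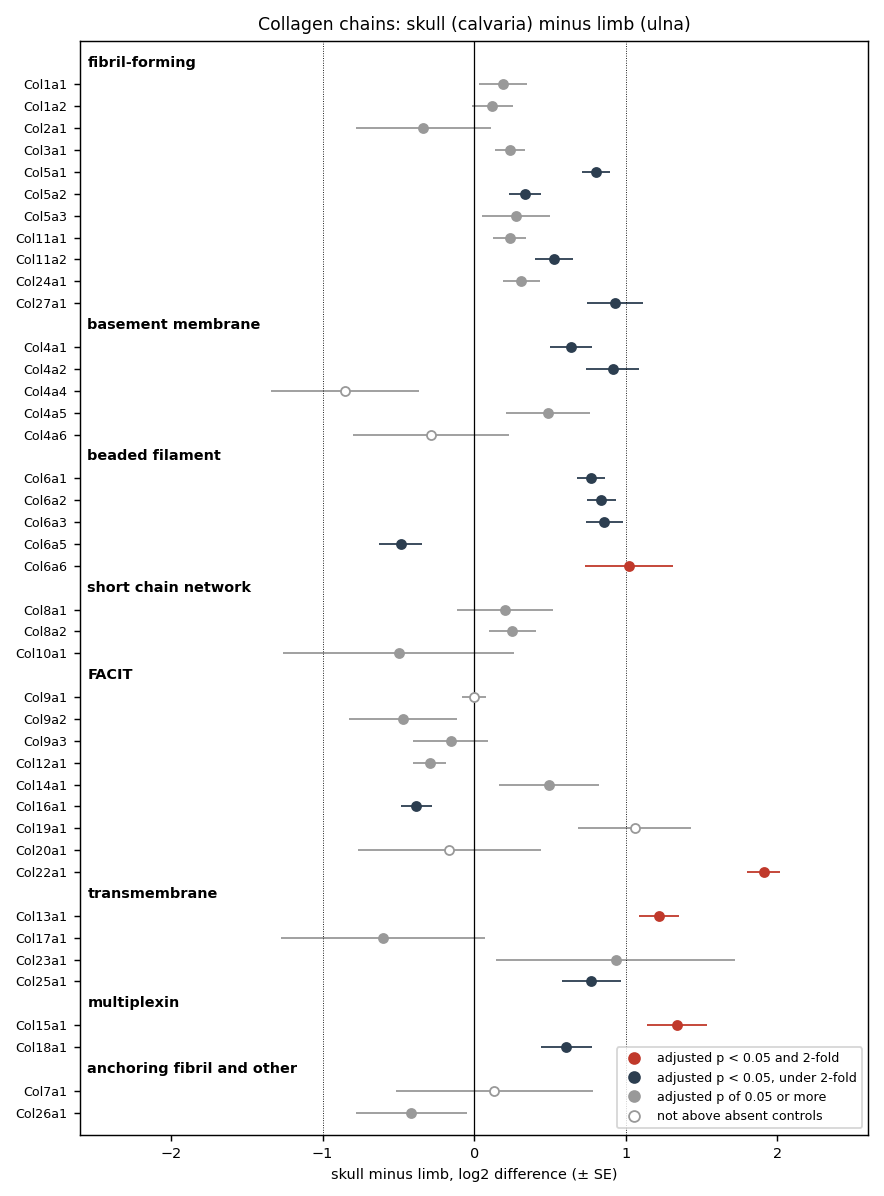
Difference between skull and limb on the log2 scale (x axis, mean ± SE from limma, 4 skull and 5 limb arrays) for the 41 collagen chains, grouped by class; dotted lines mark 2-fold and open circles chains not above absent controls. The 4 called chains lie at 1.02 to 1.91, and Col6a1, Col6a2 and Col6a3 lie between 0.77 and 0.86.

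The largest difference of any chain was in Col22a1, a FACIT chain found at tissue junctions such as that between muscle and tendon. Its signal was 619, 764, 927 and 833 in the skull and 215, 205, 187, 216 and 212 in the limb. The lowest skull array was far above the highest limb array, and the limb arrays lay close together. The difference was 1.91 ± 0.11 (3.76-fold, adjusted p = 1.4e-05), and it was between 1.73 and 2.02 in all 18 other settings and subsets of arrays tried on this probe set. Col22a1 was the only FACIT chain called.

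Col13a1 encodes a collagen that spans the plasma membrane at sites of cell adhesion. Its signal was 605, 676, 759.8 and 488 in the skull and 254, 308, 232, 285 and 268 in the limb, so that the sites did not overlap. The difference was 1.22 ± 0.13 (2.33-fold, adjusted p = 0.000162). Col15a1 encodes a multiplexin of the basement membrane zone, and its signal was 442, 405, 354 and 422 in the skull and 206, 225, 136, 145 and 114 in the limb. Ulna 1 and ulna 2 were the highest limb arrays and still lay below every skull array. The difference was 1.34 ± 0.20 (2.53-fold, adjusted p = 0.00084).

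Col6a6, a long chain of the beaded filament collagen, was dimmer. Its signal was 38.4, 23.5, 21.6 and 34.1 in the skull and 17.2, 16.7, 18.5, 10.2 and 10.1 in the limb. Calvaria 3, the lowest skull array, stood close to ulna 3, the highest limb array. The difference of 1.02 ± 0.29 (2.03-fold, adjusted p = 0.0245) lay just past the threshold, and leaving out 1 array ended the call in 4 cases: without calvaria 1 it was 0.88 (adjusted p = 0.0687), without calvaria 4 it was 0.94 (adjusted p = 0.0653), without ulna 4 it was 0.91 (adjusted p = 0.0521) and without ulna 5 it was 0.90 (adjusted p = 0.0508). With 16 added to each signal in place of the floor it was 0.57.

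**Figure D2:**
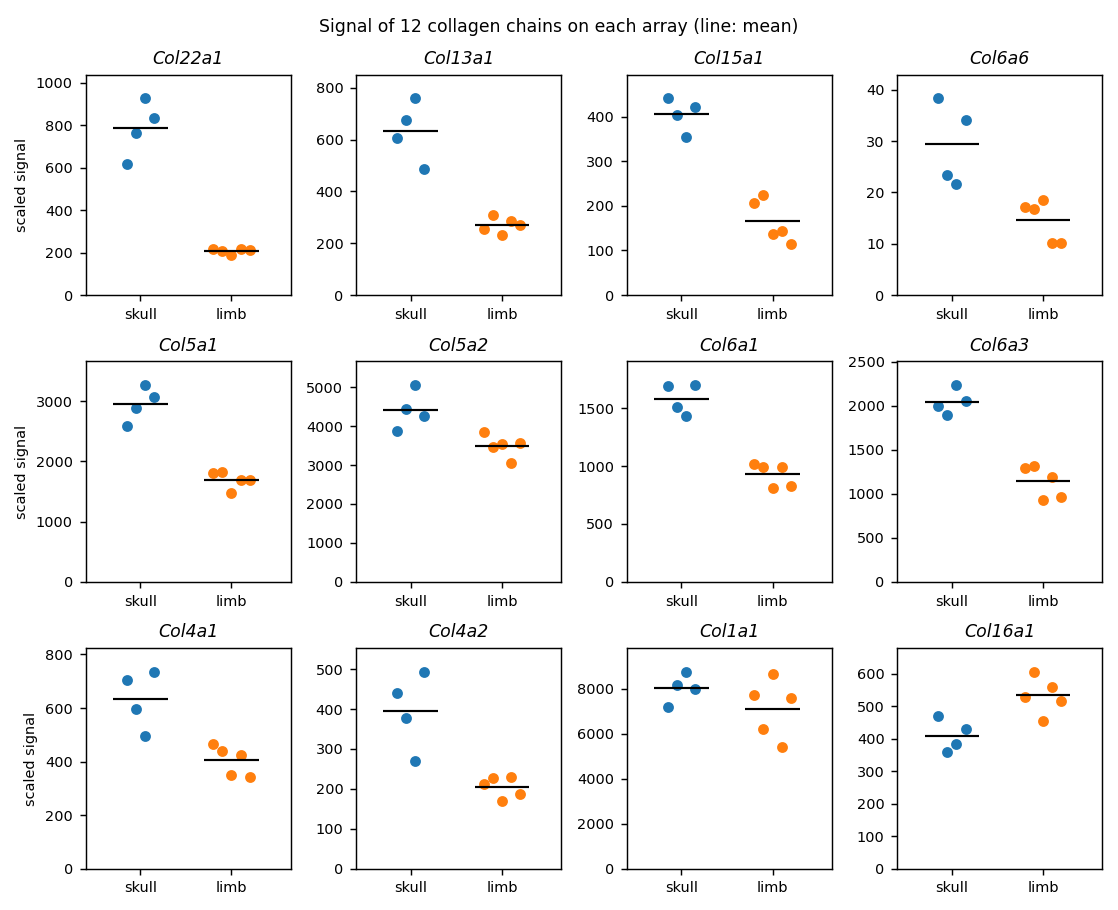
Scaled signal (y axis, linear scale from 0) of 12 collagen chains on each skull and limb array; points are arrays in the order of their numbers and lines are means of the site. Skull and limb points are separate in the panels of the 4 called chains, as they are for Col5a1, Col6a1, Col6a3, Col4a1 and Col4a2, and they overlap for Col1a1 and Col16a1.

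Upstream sequences of called chains are shown because the array reads the transcripts these regions precede. RefSeq entries (assembly GRCr8) matched 32 of the 41 chains, and Col22a1 was not among them. The 250 bases before the annotated start of Col13a1 (chr20:30466801-30467050, minus strand) held the letters of 1 TATA box, in capitals. They lie near the end furthest from that start, and whether they act as a TATA box was not tested. The 250 bases of Col15a1 (chr5:66297296-66297545, plus strand) held none of the motifs searched.
Col13a1: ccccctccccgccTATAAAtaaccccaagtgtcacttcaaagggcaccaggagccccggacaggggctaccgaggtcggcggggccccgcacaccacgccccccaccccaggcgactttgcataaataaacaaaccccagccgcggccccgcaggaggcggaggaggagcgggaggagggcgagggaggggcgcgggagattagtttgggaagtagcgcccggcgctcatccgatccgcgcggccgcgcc
Col15a1: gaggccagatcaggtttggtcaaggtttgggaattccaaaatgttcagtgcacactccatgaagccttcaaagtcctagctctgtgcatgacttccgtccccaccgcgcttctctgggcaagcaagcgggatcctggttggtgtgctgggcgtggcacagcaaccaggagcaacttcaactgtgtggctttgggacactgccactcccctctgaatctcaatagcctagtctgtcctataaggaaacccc

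Among the 11 fibril-forming chains none was called, beside 3.59% of all genes called higher and 4.47% called lower. By adjusted p alone 4 were higher and 0 lower, beside 14.2% and 18.1% of all genes. The main chains of the bone fibril did not differ beyond their spread. Col1a1 had a signal of 7179, 8149, 8739 and 7958 in the skull and 7694, 6189, 8624, 5424 and 7559 in the limb, and the arrays overlapped. The difference was 0.19 ± 0.16 (adjusted p = 0.412), with a 95% interval of -0.17 to 0.55 that does not reach 2-fold. Col1a2, its partner in the heterotrimer, had 6517, 7225, 7989 and 7613 in the skull and 7263, 6307, 7855, 5441 and 7041 in the limb, a difference of 0.12 ± 0.14 (adjusted p = 0.552, interval -0.19 to 0.43). Among the 31042 probe sets Col1a1 ranked between 1 and 4 and Col1a2 between 2 and 6 on each array, so both were read at the top of the scale, and whether this compressed their differences was not tested. Col3a1, the chain of the thinner fibrils of extensible tissue, averaged 4955 ± 278 on skull arrays and 4219 ± 427 on limb arrays (SD, n = 4 and 5). It differed by 0.24 ± 0.10 (adjusted p = 0.11).

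The chains of minor fibril-forming collagens, which copolymerise with the main fibril and limit its diameter, differed more. Col5a1 had 2586, 2886, 3267 and 3069 in the skull and 1799, 1816, 1475, 1685 and 1689 in the limb. No arrays overlapped, and the difference was 0.80 ± 0.09 (1.74-fold, adjusted p = 0.000227). Its partner Col5a2 had 3867, 4443, 5054 and 4257 in the skull and 3835, 3463, 3550, 3042 and 3568 in the limb, where calvaria 1 and ulna 1 almost met. This smaller difference of 0.33 ± 0.11 (adjusted p = 0.0389) passed the p threshold in 8 of 18 other settings, and it lost it without any one of calvaria 2, calvaria 3, calvaria 4, ulna 2, ulna 3, ulna 4 or ulna 5 (highest adjusted p of these 0.0886). Col5a3 differed by 0.28 ± 0.23 (adjusted p = 0.406).

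Col11a2 is a chain that cartilage and bone fibrils share. It was higher by 0.53 ± 0.12 (adjusted p = 0.0104), with 891, 1145, 1184 and 1151 in the skull and 682, 936, 678, 811 and 695 in the limb, while Col11a1 differed by 0.23 ± 0.11 (adjusted p = 0.146). Calvaria 1 was the only skull array within the range of the limb. Col27a1, a fibrillar chain known from cartilage, had 68.3, 58.7, 90.0 and 69.9 in the skull and 26.2, 44.2, 41.5, 36.0 and 41.1 in the limb, a difference of 0.93 ± 0.18 (adjusted p = 0.00437), and without calvaria 2 it reached 1.02 and was called. Calvaria 3 and calvaria 4 had the highest 3′ to 5′ log2 ratios of the actin control (1.04 and 1.02, against 0.57 to 0.86 on the others). Without these 2 arrays the difference of Col27a1 was 0.77 (adjusted p = 0.0538) and that of Col11a2 was 0.42 (adjusted p = 0.115). Col24a1, a fibrillar chain known from developing mouse bone, differed by 0.31 ± 0.12 (adjusted p = 0.0854). Col2a1, the main cartilage chain, averaged 14.9 ± 2.2 on skull arrays and 21.4 ± 11.3 on limb arrays (SD, n = 4 and 5), a difference of -0.34 ± 0.45 (adjusted p = 0.62), and both of its further probe sets had the opposite sign.

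Col4a1 and Col4a2 form the heterotrimer present in all basement membranes, and both were higher by adjusted p alone in the skull. Col4a1 had 706, 596, 495 and 735 in the skull and 467, 438, 351, 425 and 342 in the limb, a difference of 0.64 ± 0.14 (adjusted p = 0.00719). Col4a2 had 441, 377, 269 and 493 in the skull and 213, 227, 171, 231 and 187 in the limb, a difference of 0.91 ± 0.17 (adjusted p = 0.00349). Calvaria 3 was the lowest skull array for both, still above every limb array, and without it Col4a2 reached 1.09 and was called. Col4a5, a chain of specialised basement membranes, differed by 0.49 ± 0.28 (adjusted p = 0.227). Col4a4 and Col4a6 were not above absent controls. Markers of endothelium moved the same way: the 6 measured of 8 listed summed to 1136 to 1241 on skull arrays and 769 to 858 on limb arrays, with 6 of 6 higher by adjusted p (beside 14.2% of all genes) and a median difference of 0.52. Their part in the difference of the basement membrane chains was not tested.

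Col4a2 and Col4a1 lie head to head on their chromosome, and the whole interval between their annotated starts is shown because both chains were higher in the skull. It spans 76 bases (RefSeq, GRCr8, chr16:84885521-84885596, plus strand), with a GC box in capitals.
Col4a2-Col4a1: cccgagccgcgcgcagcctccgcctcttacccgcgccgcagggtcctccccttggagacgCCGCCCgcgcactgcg

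The beaded filament class had 5 measured chains, and all 5 passed the adjusted p, 4 higher and 1 lower, beside 14.2% and 18.1% of all genes. Col6a1, Col6a2 and Col6a3 assemble into the collagen VI of the space around cells. Col6a1 had 1688, 1506, 1429 and 1699 in the skull and 1016, 988, 814, 993 and 829.9 in the limb. Col6a2 had 1036, 1029.8, 960.4 and 1245 in the skull and 611, 682, 538, 613 and 541 in the limb. Col6a3 had 1999, 1896, 2233 and 2049 in the skull and 1295.5, 1317.5, 929, 1195 and 959 in the limb. None of the 3 chains overlapped between the sites. Their differences were 0.77 ± 0.09 (adjusted p = 0.000303), 0.84 ± 0.10 (adjusted p = 0.000222) and 0.86 ± 0.12 (adjusted p = 0.000714), each under 2-fold and each past the p threshold in all 18 other settings.

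Col6a5, another long chain of the same collagen, was lower in the skull. It had 29.6, 36.2, 40.4 and 31.6 in the skull and 46.3, 56.6, 50.3, 40.9 and 46.6 in the limb, without overlap, although calvaria 3 and ulna 4 nearly met. The difference was -0.49 ± 0.14 (adjusted p = 0.027), and the adjusted p rose above 0.05 without calvaria 1 (0.0667), calvaria 4 (0.0624), ulna 2 (0.0602) or ulna 3 (0.0571). Col6a6 and Col6a5 lie next to each other with 1 predicted gene between them, and they differed in opposite directions, by 1.02 and -0.49. Their upstream sequences are therefore set side by side: Col6a6 (chr8:115352162-115352411, minus strand) held a GC box and Col6a5 (chr8:115462845-115463094, minus strand) a CCAAT box, both in capitals (RefSeq, GRCr8).
Col6a6: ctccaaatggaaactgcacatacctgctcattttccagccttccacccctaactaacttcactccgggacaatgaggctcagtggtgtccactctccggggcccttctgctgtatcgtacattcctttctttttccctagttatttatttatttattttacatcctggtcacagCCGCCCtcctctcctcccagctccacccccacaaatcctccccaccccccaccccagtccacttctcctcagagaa
Col6a5: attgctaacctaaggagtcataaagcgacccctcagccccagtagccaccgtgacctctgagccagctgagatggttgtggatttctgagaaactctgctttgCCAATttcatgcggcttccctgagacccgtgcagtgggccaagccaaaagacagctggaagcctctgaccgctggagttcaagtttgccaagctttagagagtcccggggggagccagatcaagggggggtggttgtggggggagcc

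Of the FACIT chains other than Col22a1, Col16a1 was lower in the skull by adjusted p alone. It had 468, 357, 382 and 428 in the skull and 529, 605, 455, 558 and 516 in the limb, where calvaria 1 lay above ulna 3. The difference was -0.38 ± 0.10 (adjusted p = 0.0182), and the adjusted p was 0.0532 without calvaria 2, 0.0524 without calvaria 3 and 0.0822 under quantile normalisation. Col12a1, which coats fibrils in dense connective tissue and periosteum, had 751, 566, 687 and 641 in the skull and 863, 936, 777, 795 and 678 in the limb, a difference of -0.29 ± 0.11 (adjusted p = 0.0711) by this probe set, where its 2 further probe sets gave 0.61 and 0.44. Col14a1, a related coat chain, averaged 218 ± 90.9 on skull arrays and 148 ± 43.4 on limb arrays (SD, n = 4 and 5) and differed by 0.49 ± 0.33 (adjusted p = 0.304). Col9a2 and Col9a3, chains of the cartilage fibril surface, differed by -0.47 ± 0.35 and -0.16 ± 0.25. Col9a1 was at or under the floor on all 9 arrays. Col20a1 was not above absent controls, nor was Col19a1, which had 10.97, 4.23, 7.12 and 2.56 in the skull and 0.87, 1.11, 1.19, 1.04 and 2.93 in the limb (adjusted p = 0.0566).

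Among transmembrane chains, Col25a1, a membrane collagen studied mainly in neurons, was higher by adjusted p alone beside Col13a1. It had 34.2, 42.0, 59.2 and 40.9 in the skull and 23.3, 26.5, 21.2, 31.8 and 24.7 in the limb, without overlap and with a difference of 0.77 ± 0.19 (adjusted p = 0.0143). Without calvaria 3 and calvaria 4 the difference was 0.58 (adjusted p = 0.104), and with the replicate number as a block it was 0.77 (adjusted p = 0.0829). Col23a1 differed by 0.93 ± 0.79 (adjusted p = 0.419) and Col17a1, the hemidesmosome collagen of epidermis, by -0.60 ± 0.67 (adjusted p = 0.546). Both were dim and spread widely within each site. Col18a1, the multiplexin that releases endostatin, had 104.8, 104.8, 72.2 and 99.8 in the skull and 81.8, 57.6, 49.5, 67.3 and 57.8 in the limb. Calvaria 3 lay below ulna 1, and the difference of 0.61 ± 0.17 (adjusted p = 0.0221) lost its p threshold without calvaria 1, calvaria 2 or calvaria 4 (highest adjusted p 0.0642).

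The short chain network collagens did not pass the test. Col8a2, a chain of the lattice under corneal and vascular endothelium, had 461, 354, 341 and 351 in the skull and 372, 397, 271, 308 and 247 in the limb (0.25 ± 0.16, adjusted p = 0.266), and Col8a1 differed by 0.20 ± 0.32 (adjusted p = 0.679). Col10a1, the marker of hypertrophic cartilage, averaged 9.74 ± 8.24 on skull arrays and 13.2 ± 7.3 on limb arrays (SD, n = 4 and 5), close to the absent controls. Col26a1 had 15.7, 32.5, 8.42 and 21.0 in the skull and 18.4, 23.2, 29.0, 20.5 and 25.9 in the limb, a difference of -0.41 ± 0.37 (adjusted p = 0.444). Col7a1, the anchoring fibril chain of skin, was not above absent controls. The 7 measured of 10 listed cartilage markers summed to 108 to 148 on skull arrays and 189 to 285 on limb arrays. Of these markers 0 were called higher and 2 lower, beside 3.59% and 4.47% of all genes, and Matn1 was not above absent controls.

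Chains were then compared in pairs within each array, to ask whether both differed between the sites by the same amount. The pairs were partners in a molecule, except Col3a1 and Col5a2, which are neighbours on the chromosome, and 3 pairs held a chain not above absent controls (Col9a1 in 2 of them and Col4a6). The measure was the log2 signal of one chain minus that of the other. Its sign has no meaning across probe sets, and only its change between the sites was tested, over 11 pairs by an exact two-sided permutation test. No p can be smaller than 0.00794 with arrays this few, and after adjustment over the 11 pairs no single pair could go below 0.0873. No pair passed. The measure for Col5a1 over Col5a2 was -0.58 ± 0.07 on skull arrays and -1.04 ± 0.16 on limb arrays (SD, n = 4 and 5). Its 2 sets of arrays did not overlap, and the change of 0.47 had the smallest p the exact test allows (0.00794, adjusted p = 0.0873).

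For Col4a1 over Col4a2 the measure was 0.70 ± 0.13 on skull arrays and 0.97 ± 0.11 on limb arrays, a change of -0.27 (exact permutation p = 0.0238, adjusted p = 0.131). This change depends on the probe set: Col4a1 differed between the sites by 0.64 by the set used and 0.96 by its further set, beside 0.91 for Col4a2. For Col11a1 over Col11a2 the change was -0.29 (exact permutation p = 0.0794, adjusted p = 0.291). The other pairs of brightly measured partners had smaller changes. The change was 0.07 for Col1a1 over Col1a2 (exact permutation p = 0.151), -0.07 for Col6a1 over Col6a2 (exact permutation p = 0.317) and 0.09 for Col6a3 over Col6a1 (exact permutation p = 0.452).

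**Figure D3:**
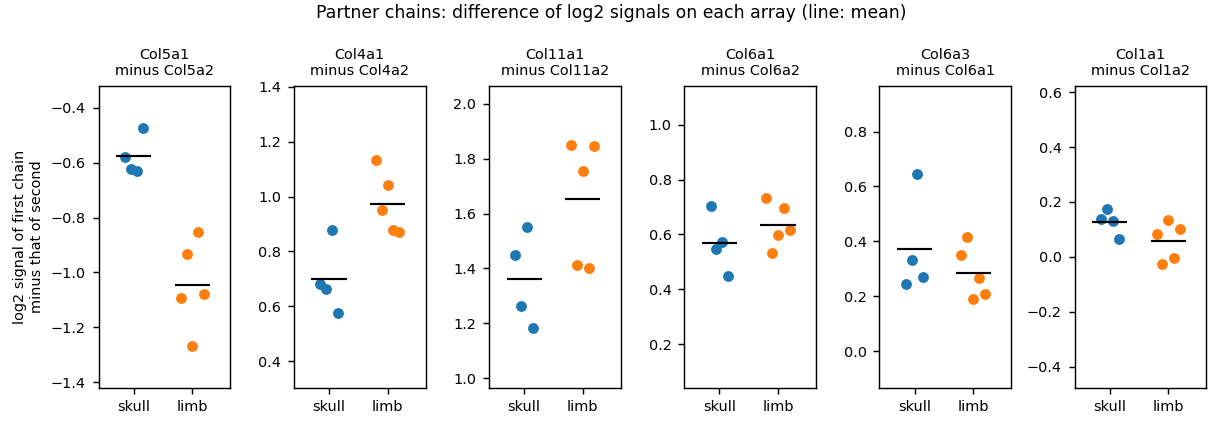
Log2 signal of a collagen chain minus that of its partner (y axis) on each skull and limb array, for 6 pairs; every panel spans the same height, points are arrays and lines are means. The Col5a1 and Col5a2 panel shows means of -0.58 in the skull and -1.04 in the limb without overlap, while the Col6a1 and Col6a2 panel has overlapping arrays around 0.57 and 0.64.

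Arrays of one site varied by class. Over the 21 chains with a mean signal above 100, the SD on the log2 scale had a median of 0.17 in the skull and 0.17 in the limb. Calvaria 3 was the highest skull array for 9 of the 11 fibril-forming chains, and calvaria 1 was the lowest for 7 of them. Calvaria 3 was also the highest for 2 of 4 transmembrane and 2 of 5 beaded filament chains, but it was the lowest skull array for both multiplexins and for 2 of the 3 basement membrane chains above absent controls. Markers moved with it, since the osteoblast sum was highest in calvaria 3 (20047.6) and the endothelial sum lowest there (1136). Calvaria 3 also had the highest 3′ to 5′ log2 ratios of all 9 arrays, 1.04 for the actin control and 0.59 for the GAPDH control. The part of these markers and ratios in the array pattern was not tested. In the limb, ulna 2 was the highest array for 16 of the 35 chains above absent controls, ulna 3 the lowest for 12 and ulna 5 for 11.

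**Figure D4:**
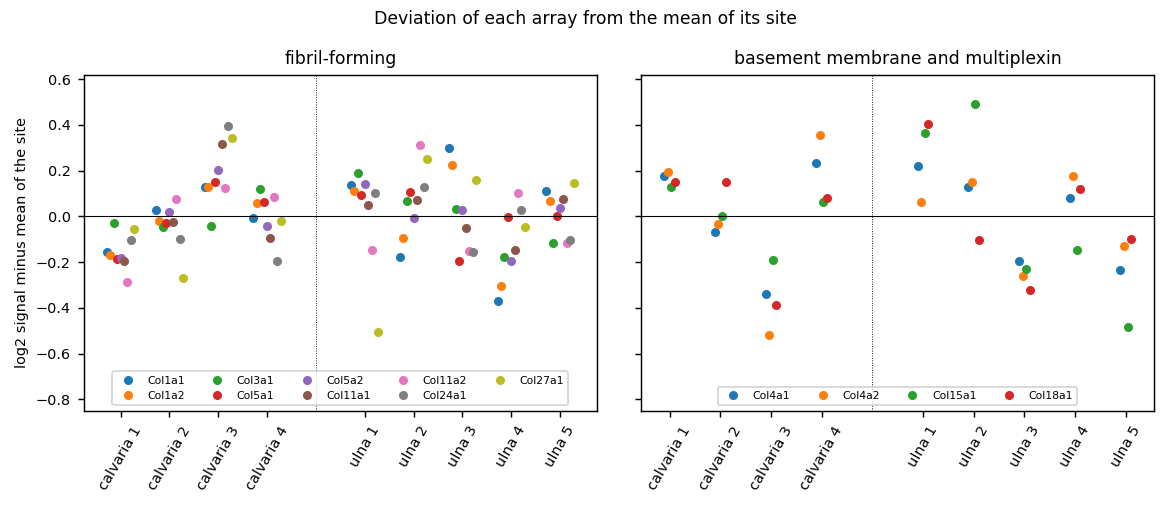
Log2 signal of a chain on each array minus the mean of its site (y axis), for 9 fibril-forming chains and for Col4a1, Col4a2, Col15a1 and Col18a1; each colour is a chain. In calvaria 3 the plotted fibril-forming chains other than Col3a1 lie above 0, while the 4 basement membrane and multiplexin chains lie below it. Of the fibril-forming chains not plotted, Col5a3 was at -0.52 in calvaria 3 and Col2a1 at 0.24.

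More than 1 probe set was present for 14 chains, which allowed the same transcripts to be read by other probes on the same arrays. Of 17 further probe sets, 12 had the sign of the one used and 5 the opposite sign. The further sets of Col15a1 (1.55 ± 0.17), Col5a1 (0.91 ± 0.09), Col4a1 (0.96 ± 0.15), Col6a3 (1.45 ± 0.31) and Col5a2 (0.50 ± 0.10) differed by more than the sets used. Those of Col6a2 (0.39 ± 0.20, beside 0.84, with overlapping arrays), Col18a1 (0.41 ± 0.21, beside 0.61) and Col14a1 (0.05 ± 0.30, beside 0.49) differed by less, and with p adjusted over all probe sets Col6a2 (0.218) and Col18a1 (0.216) did not pass there. Those of Col1a1 (0.15 ± 0.14) and Col1a2 (0.15 ± 0.16) were small, like the sets used. The opposite signs were in Col2a1, Col12a1 and Col4a6. For Col12a1 the further sets gave 0.61 ± 0.32 and 0.44 ± 0.20, beside -0.29 for the brighter set, so the sign of its difference depends on the probe set. For Col2a1 they gave 0.35 ± 0.37 and 1.16 ± 0.60, beside -0.34.

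**Figure D5:**
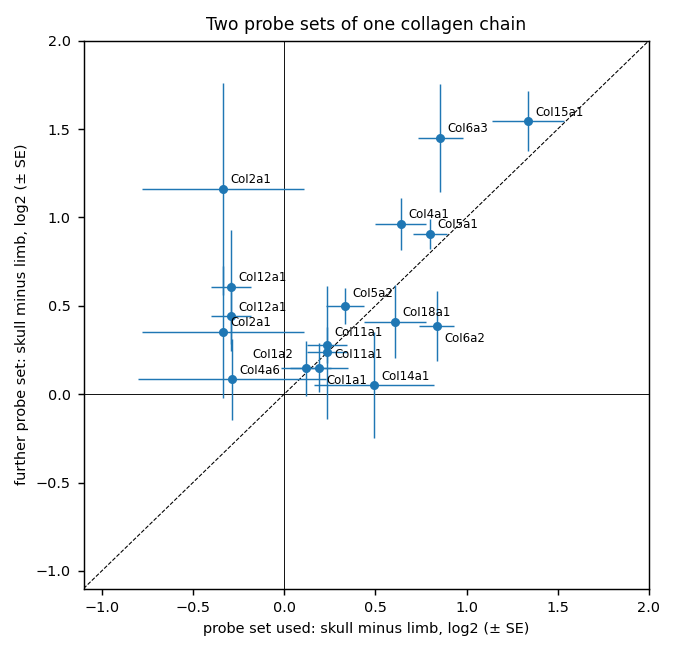
Difference between skull and limb (log2, mean ± SE) by a further probe set (y axis) against that by the probe set used (x axis), for the 17 further probe sets of 14 collagen chains; the dashed line marks equal values. Points of Col15a1, Col5a1, Col4a1, Col6a3 and Col5a2 lie above the line, and those of Col2a1, Col12a1 and Col4a6 lie left of 0.

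Upstream motifs were searched by their letters alone, at any position and on both strands. The window was the 250 bases before the start of 27457 RefSeq genes, 32 of them collagen chains. The TATA box (TATAAA) was present in 4 chains (12.5%, beside 13.1% of all genes), among them Col1a2 and Col13a1. The CCAAT box (CCAAT) was present in 9 (28.1%, beside 34.3%) and the core letters bound by RUNX factors (TGTGGT) in 2 (6.25%, beside 14.1%). The GC box (GGGCGG) was present in 18 (56.2%, beside 32.4%), and the median GC content was 59% over the chains and 52% over all genes. Among 6 pairs of chains with at most 2 genes between them, 3 had differences of 1 sign: Col4a2 and Col4a1 (0.91 and 0.64), Col6a1 and Col6a2 (0.77 and 0.84), and Col3a1 and Col5a2 (0.24 and 0.33).

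Genes that hydroxylate, fold, trim and crosslink collagen also differed between the sites. Of 24 measured of 31 listed, 9 were called higher and 0 lower, beside 3.59% and 4.47% of all genes, with a median difference of 0.72, beside -0.02 over all genes. P4ha2 and P4ha1, catalytic subunits of the prolyl 4-hydroxylase that stabilises the helix, differed by 1.43 ± 0.07 (adjusted p = 1.2e-05) and 1.46 ± 0.09 (adjusted p = 1.6e-05). P4ha2 had 533, 597, 560.1 and 522 in the skull and 208, 220, 184, 217 and 195 in the limb. P3h1, which hydroxylates a single proline of fibrillar chains, differed by 1.35 ± 0.08 (adjusted p = 1.5e-05). P4ha3, another catalytic subunit, differed by -0.79 ± 0.20 (adjusted p = 0.0159), under 2-fold.

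Of 5 measured of 10 listed collagen receptors, none was called, beside 3.59% of all genes called higher and 4.47% called lower. Itgb1, the integrin chain shared by collagen-binding integrins, differed by 0.28 ± 0.07 (adjusted p = 0.0118), and Ddr2, a receptor kinase for fibrillar collagen, by 0.78 ± 0.08 (adjusted p = 0.000148). Of 10 measured of 11 listed genes that degrade collagen or inhibit its degradation, 5 were called higher and 1 lower, beside 3.59% and 4.47% of all genes. Fap, a fibroblast surface protease that cleaves collagen fragments, had 440.4, 555, 702 and 490.3 in the skull and 94.0, 103, 65.7, 77.6 and 67.7 in the limb, a difference of 2.75 ± 0.17 (adjusted p = 1.6e-05). Mmp9, a gelatinase of osteoclasts and neutrophils, differed by 1.60 ± 0.12 (adjusted p = 2.7e-05), and Timp1, an inhibitor of metalloproteinases, by 1.60 ± 0.12 (adjusted p = 3.6e-05). The lower gene was Mmp8, the collagenase of neutrophils, with a difference of -1.81 ± 0.21 (adjusted p = 0.000211).

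Markers of cell types also differed between the sites. Each count of called markers below stands beside 3.59% of all genes called higher and 4.47% called lower. Of the 6 measured osteoblast markers, 1, Ibsp, was called higher in the skull (1.06 ± 0.12), and 4 were higher by adjusted p alone, beside 14.2% of all genes, with a median difference of 0.51. Skeletal muscle markers (10 measured of 10 listed) summed to 636 to 753 in the skull and 6860 to 16697 in the limb, with 9 called lower, and 5 of them, Myh2, Myh4, Mb, Tnnc2 and Pvalb, were not above absent controls in the skull. Most of the skull sum was the probe set of Myh1, a fast myosin heavy chain. This probe set averaged 601 on skull arrays and 399 on limb arrays and was higher by 0.59 ± 0.12 (adjusted p = 0.0045), against the other 9 markers. Whether it reads Myh1 alone was not tested, so the skull sum is not taken as a level of muscle RNA. Osteoclast markers (3 of 6) summed to 7745 to 11217 in the skull and 2785 to 3549 in the limb, with 3 called higher. Fibroblast and periosteal markers (8 of 8) summed to 10130.3 to 11595 in the skull and 7683 to 10089.7 in the limb, with 3 called higher. By adjusted p alone 4 of them were higher and 1, Postn, was lower (-0.57 ± 0.16, adjusted p = 0.0245), beside 14.2% and 18.1% of all genes. Mural cell markers (6 of 6) summed to 762 to 926 in the skull and 460 to 653 in the limb, with 1 called higher. Tendon markers (4 of 6) summed to 969 to 1353 in the skull and 809 to 1175 in the limb, with 1 called lower, erythroid markers (5 of 6) to 9677 to 10249.9 and 11955 to 16110.0, with 4 called lower, and adipocyte markers (6 of 6) to 1378 to 1864 and 1827 to 2536, with 3 called lower. Schwann cell markers (5 of 7) summed to 889 to 955 in the skull and 703 to 832 in the limb, with 1 called higher and 1 lower, and epidermal markers (6 of 6) to 94.8 to 121 and 71.8 to 122, with none called. The part of these cell types in the differences of the collagen chains was not tested.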

How the data were processed

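Total RNA of 4 skull (calvaria) and 5 limb (ulna) extracts was labelled by one-cycle cDNA synthesis and hybridised to rat whole-genome GeneChips. The deposited intensities are MAS5 signals, linear and scaled by the authors. Array medians lay between 33.01 and 36.59. Of 31099 probe sets, 57 were controls and 31042 were tested; the platform annotation gave 1 symbol for 20826, several for 436 and none for 9780. All 9 arrays listed for the 2 sites were used. The methods of the study describe 5 groups of rats, and a skull extract numbered 5 was not analysed here.

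Each array was divided by its median and multiplied by the mean of the medians, floored at the 10th percentile of all values (2.51) and taken to log2, which understates differences of dim genes. Skull was compared with limb by limma 3.58.1 (R 4.3.3; lmFit, eBayes with an intensity trend), checked on simulated data, with p adjusted over 1 probe set for each of 14217 genes. Samples were grouped by title and source name. Precision is limited by the number of arrays.

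Values per array are given for called chains, for the chain with the highest signal of each class and for partners of called chains; other chains passing the p threshold were added after their values were seen. Chains within 0.25 of 2-fold are named, and from other lists the 3 called genes of smallest adjusted p, or the 2 of highest signal where none was called. Mmp8 and P4ha3 were chosen after their values were seen. The members and lists were chosen with earlier results of these data known. Alternatives were another floor, a pseudocount of 16, other normalisations, filters, probe-set rules, array weights, the methods' t-test, a replicate block, and subsets of arrays. Promoters are from RefSeq (GRCr8), searched over 250 of their 300 bases.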

Additional observations from a re-analysis of the deposited data

Results flagged for a closer look

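In 12 of the 80 groups of 4 or 5 arrays tested over the chains, 1 array stood apart from the others of its site by Dixon's criterion. The criterion was applied to floored log2 values, while the signals below are given before the floor. Chance gives a flag in about 1 in 20 groups (4.0 of these), a rate that does not hold for groups with several arrays at the floor. Among bright chains, Col3a1 was highest in calvaria 4 (5371.54, others 4796 to 4847), Col11a2 lowest in calvaria 1 (890.729, others 1145 to 1184), Col24a1 highest in calvaria 3 (455.213, others 303 to 324), Col8a2 highest in calvaria 1 (461.492, others 341 to 354) and Col18a1 lowest in calvaria 3 (72.1811, others 99.8 to 104.8).

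Dim chains gave the rest. Col9a2 was lowest in calvaria 1 (7.0159, others 19.0 to 20.9), Col17a1 in calvaria 2 (3.3712, others 8.30 to 9.04), Col23a1 in calvaria 3 (3.397, others 19.6 to 27.3) and Col10a1 in ulna 2 (1.637, others 11.4 to 19.9). Col4a4 in calvaria 4 (4.2898), Col19a1 in ulna 5 (2.9349) and Col20a1 in calvaria 3 (12.5519) were the highest of their site, and all 3 chains were not above absent controls in their site means. In these 3 groups 2, 4 and 2 of the other arrays were at or under the floor. The floor makes such arrays equal, so these flags have no meaning beside the chance rate.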

How the results depend on the processing

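The counts of 4 chains called higher and 0 called lower stayed within 3 to 5 and at 0 under every alternative run. The chains counted were not always the same. Col22a1, Col13a1 and Col15a1 were called in all 18 other settings checked chain by chain. Without calvaria 4 the count was 4 although Col6a6 was lost, because a chain that had not passed the adjusted p in the main fit was called. The partner contrasts gave 0 passing pairs in each, which the number of arrays all but fixes. The count of chains lower by adjusted p alone (2) was 1 under quantile normalisation, 0 with the replicate block, 0 without calvaria 3 and calvaria 4 together, a subset chosen after seeing the data, and between 1 and 3 when single arrays were left out; it was 1 without calvaria 2, calvaria 3, calvaria 4, ulna 2 or ulna 3. The median difference of the chains (0.28) was 0.49 over those at or above the median signal. The mean of all its probe sets turned Col12a1 to 0.25 (adjusted p = 0.283). Col6a6 lost its call with the replicate block (0.90, adjusted p = 0.117) and without calvaria 3 and calvaria 4 (1.10, adjusted p = 0.0864), and the mean of its probe sets brought Col6a3 to 1.15 and a call. Of all genes, 511 were called higher and 636 lower, against 285 and 401 with the pseudocount. The replicate block leaves out ulna 5, and its 3 called chains are Col22a1, Col13a1 and Col15a1. Same-numbered skull and limb arrays correlated between -0.01 and 0.04 in their deviations, which cannot show whether they share rats. For numbers 1 and 4 this correlation (0.038 and 0.043) exceeded the highest with another ulna (0.0009 and 0.008), and for numbers 2 and 3 it did not. The labels give no pairing, so the main fit used none. The causes of the changes between settings were not tested. Chains near the absent controls have differences set largely by the floor, and those of Col1a1 and Col1a2 were read at the top of the scale.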
